A study of Mus musculus with 16 samples.

Results

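The coagulation and fibrinolysis genes described here are 34 mouse genes that encode clotting factors, their inhibitors, the contact and kinin proteins, and the enzymes and inhibitors that dissolve fibrin. They were taken from a fixed list of symbols, all 34 of which matched a row of the count table, which has 53465 genes. Livers of C57BL/6 mice were profiled by RNA-seq after a control diet (CD) or a high-fat diet (HFD) for 16 weeks, followed by 8 weeks with perfluorooctanoate (PFOA), a persistent fluorinated surfactant, or with vehicle. The groups were HFD_PFOA, CD_PFOA, HFD_vehicle and CD_vehicle, with 4 mice and 4 libraries each, all aged 29 to 30 weeks. Each mouse was a separate biological replicate. Neither the PFOA dose nor the sex of the animals was stated in the labels.

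Clotting starts when tissue factor, a membrane protein that blood does not normally meet, binds factor VII. A chain of proteases then activates prothrombin to thrombin, which turns soluble fibrinogen into fibrin. Antithrombin, protein C and other inhibitors hold this chain back, and plasmin, made from plasminogen, dissolves the fibrin. The liver is the main source of most of these plasma proteins, since hepatocytes secrete them, whereas factor VIII, von Willebrand factor and thrombomodulin come chiefly from endothelium. Messenger RNA in liver does not measure the plasma proteins or clotting itself, which were not analysed here.

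Libraries held 14456524 to 25778125 counts. Of the 14998 genes with enough counts to be tested, all 34 members were included. Levels are given as CPM, the depth-scaled count unit of RNA-seq, after scaling for library composition with TMM factors. Changes are log2 fold changes ± SE from edgeR's quasi-likelihood test on all 16 libraries, and a gene was called at a Benjamini-Hochberg adjusted p under 0.05 over all genes tested. Unless another fit is named, "called" and "not called" refer to this fit. The liver label matched the hepatocyte markers, with Alb (albumin) at 39571 ± 4508 CPM in HFD_PFOA, 51819 ± 6943 CPM in CD_PFOA, 62500 ± 5719 CPM in HFD_vehicle and 95245 ± 17288 CPM in CD_vehicle (SD, n = 4 each). As a check of exposure, all 8 PPARA target genes listed were called higher with PFOA on each diet, and Ehhadh, a peroxisomal enzyme of this set, rose by 4.63 ± 0.16 on the control diet and by 4.53 ± 0.16 on the high-fat diet. CD_vehicle 1 stood apart in acute phase genes, whose summed level was 28608 CPM there and 9597 to 11385 CPM in the other CD_vehicle mice. CD_vehicle 4 stood apart in B cell genes, with a summed level of 327 CPM, against 6.09 to 24.1 CPM in the other 15 libraries.

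Most of the module was lower with PFOA on the control diet. There, 25 of the 34 members fell and 4 rose (F3, F8, Vwf and Plat), and 5 were not called. Over all genes tested, 12.6% were called lower and 11.8% higher, or 24.4% in either direction. The median log2 fold change of the members was -0.65, and that of all genes was -0.0024. On the high-fat diet, 12 members fell and 2 rose (F3 and F8), where 7.91% of all genes were called lower and 8.6% higher, or 16.5% in either direction, and the medians were -0.38 for the members and 0.0075 for all genes. All 12 of the members that fell on the high-fat diet also fell on the control diet, as 13 further members did. Without CD_vehicle 1, which is in neither group of this comparison but shares its fit, 19 members were lower on the high-fat diet, against 9.01% of all genes. The 7 added were Cpb2, Fga, Fgb, Fgg, Kng1, Pros1 and Serpina10. The ranges of the 4 PFOA and 4 vehicle mice did not overlap for 25 members lower and 2 higher on the control diet, against 11.6% and 11.1% of all genes, and for 18 lower and 2 higher on the high-fat diet, against 12.5% and 12.9%.

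The high-fat diet without PFOA gave 18 members lower and 1 higher (Plat), against 5.21% of all genes called lower and 5.19% higher (10.4% in either direction), with a median of -0.41 for the members and -0.029 for all genes. The ranges of the mice did not overlap for 19 members lower and 2 higher (Plat and Thbd), against 7.21% and 7.25% of all genes. This comparison and that of PFOA on the control diet share the CD_vehicle mice, so their values are not independent. Its split depended on the scaling. With library totals in place of TMM factors, 11 members were lower and 7 higher, against 1.92% of all genes lower and 13.7% higher, and the median of all genes moved to 0.19. The calls of F11, F12, F13b, Habp2, Proc, Proz and Serpind1 were lost, and the 7 higher were F5, F8, Plat, Pros1, Tfpi, Thbd and Vwf. In mice given PFOA, HFD_PFOA and CD_PFOA differed in 0 members by edgeR and in 0 by DESeq2, with 6 of 34 members at an unadjusted p under 0.05, against 11.1% of all genes at that p. By the adjusted p, 0.0133% of all genes were called lower and 0.0467% higher (0.06% in either direction). Ranges did not overlap for 2 members, Kng2 and Serpind1, both lower in HFD_PFOA, and for 0 higher, against 3.53% and 4.15% of all genes. The members' log2 fold changes lay between -0.44 for F3 and 0.76 for F13a1.

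Beside F7, F11, the fibrinogen chains, Plg and Serpinf2, which are described further on, 11 members fell in HFD_vehicle relative to CD_vehicle. F10 had the largest of these changes, at -0.70 ± 0.10, and Kng1 was at -0.58 and Serpinc1 at -0.51. Proz (-0.50), Kng2 (-0.48), Habp2 (-0.45), F2 (-0.44) and Proc (-0.40) came next, and Serpind1 (-0.39), F13b (-0.37) and F12 (-0.33) had the smallest changes. The call of F13b was lost without CD_vehicle 2, CD_vehicle 3 or any single HFD_vehicle mouse. That of F12 was lost without HFD_vehicle 2 or HFD_vehicle 4. In a fit of the 2 groups alone, the calls of F12, F13b, Habp2, Proc and Serpind1 were lost. Among those not called, Serpina10 was at -0.81, Gas6 at -0.50, Klkb1 at -0.41, Cpb2 at -0.28, Hrg at -0.26 and F9 at -0.11. F5 was at 0.04, F3 at 0.11, F8 at 0.13, Pros1 at 0.19, Tfpi at 0.40, Plau at 0.68, Vwf at 0.69, Thbd at 0.75 and F13a1 at 2.38. Thbd was at 0.76 by DESeq2 and called (adjusted p = 0.032), as was F13a1 at 2.44 (adjusted p = 0.029). Without CD_vehicle 4, Cpb2, Klkb1 and Serpina10 were also called lower and Plau and Vwf higher, and without CD_vehicle 1, Klkb1 was called lower and F13a1 higher.

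**Figure D1:**
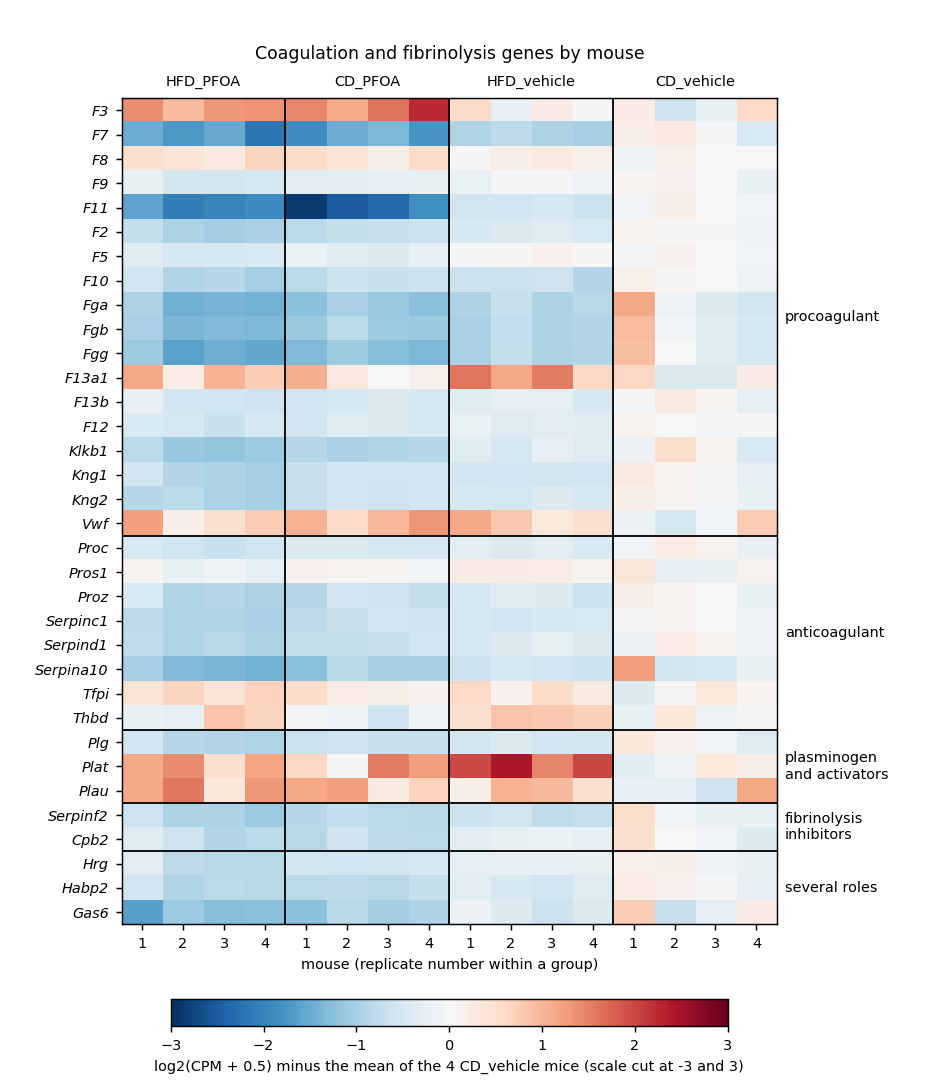
Each row is a member, grouped by role, and each column a mouse; colour is log2(CPM + 0.5) minus the mean of the 4 CD_vehicle mice. Most rows are blue in the 8 PFOA mice and paler blue in HFD_vehicle; F3, F8 and Vwf are red in CD_PFOA, and Plat is deepest red in HFD_vehicle.

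F11, which encodes factor XI, the protease that activates factor IX, had the largest change among the members called in either PFOA comparison. On the control diet it had 5.23, 7.0, 7.88 and 11.2 CPM in CD_PFOA mice, against 38.9, 47.0, 41.8 and 39.0 CPM in CD_vehicle mice. HFD_PFOA mice on the other diet had 13.5, 9.42, 10.2 and 10.8 CPM, against 28.2, 27.3, 28.5 and 26.5 CPM in HFD_vehicle mice. The groups did not overlap on either diet, and F11 fell by 2.41 ± 0.17 (adjusted p = 3.2e-09) and by 1.33 ± 0.16 (adjusted p = 8.2e-06), which is 5.32-fold and 2.51-fold lower. Without PFOA, F11 fell by 0.59 ± 0.16 in HFD_vehicle relative to CD_vehicle (adjusted p = 0.022), a call that was lost with library totals and in 4 of the 16 fits that left out 1 mouse.

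F7 encodes factor VII, the protease that tissue factor activates. It had 17.9, 23.1, 25.4 and 18.9 CPM in CD_PFOA mice, against 75.3, 80.9, 64.6 and 47.7 CPM in CD_vehicle mice. The corresponding values were 23.1, 19.7, 22.7 and 14.3 CPM in HFD_PFOA mice, against 35.0, 37.8, 34.5 and 32.8 CPM in HFD_vehicle mice. Every PFOA mouse lay below every vehicle mouse, and F7 fell by 1.65 ± 0.16 (adjusted p = 3.5e-07) on the control diet and by 0.81 ± 0.16 (adjusted p = 0.0014) on the high-fat diet. In HFD_vehicle relative to CD_vehicle it fell by 0.94 ± 0.16 (adjusted p = 0.0011). F10, the neighbouring gene for factor X, had a smaller change than F7 on both diets. The ratio of F10 to F7 per kilobase of exon averaged 7.41 ± 1.13 in HFD_PFOA, 7.63 ± 1.05 in CD_PFOA, 4.54 ± 0.27 in HFD_vehicle and 3.96 ± 0.66 in CD_vehicle (SD, n = 4 each).

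F3, which encodes tissue factor, moved the other way. It had 5.27, 4.10, 5.99 and 9.41 CPM in CD_PFOA mice, against 2.0, 0.87, 1.31 and 2.69 CPM in CD_vehicle mice. HFD_PFOA mice had 5.04, 3.60, 4.67 and 4.90 CPM, against 2.63, 1.28, 2.0 and 1.53 CPM in HFD_vehicle mice. The groups did not overlap on either diet, and F3 rose by 1.84 ± 0.34 (adjusted p = 0.00045) and 1.29 ± 0.34 (adjusted p = 0.011). These levels rest on 19 to 63 counts per CD_vehicle mouse and on 99 to 230 per CD_PFOA mouse.

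The stretches just upstream of the annotated starts of these 3 genes are shown because F11 and F7 had the largest falls on the control diet and F3 the larger rise of the 2 members that rose on both diets. They come from RefSeq on GRCm38.p6 and run 5′ to 3′ on the gene's strand. F11 lies at chr8:45262032-45262181 on the minus strand, F7 at chr8:13025884-13026033 on the plus strand and F3 at chr3:121723387-121723536 on the plus strand. Capitals mark a match to the C/EBP motif TTGCNNAA on either strand.
F11: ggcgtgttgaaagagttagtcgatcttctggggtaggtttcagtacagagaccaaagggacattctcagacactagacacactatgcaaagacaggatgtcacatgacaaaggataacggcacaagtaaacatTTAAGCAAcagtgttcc
F7: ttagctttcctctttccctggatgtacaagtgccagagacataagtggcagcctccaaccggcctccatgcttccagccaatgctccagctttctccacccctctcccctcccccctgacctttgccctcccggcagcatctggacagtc
F3: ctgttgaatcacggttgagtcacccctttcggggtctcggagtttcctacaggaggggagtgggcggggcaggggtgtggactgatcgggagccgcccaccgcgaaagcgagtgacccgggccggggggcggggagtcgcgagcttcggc
F11 held a C/EBP match at -17 to -10 from the start, and F7 and F3 held no match in these windows to any of the 7 motifs searched.

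The fibrinogen chains, Fga, Fgb and Fgg, are the most abundant members per length of exon in every group and form a cluster on chromosome 3. Fgb had 3205, 3972, 3270 and 3219 CPM in CD_PFOA mice, against 13197, 6650, 5441 and 4981 CPM in CD_vehicle mice. It had 3551, 2700, 2777 and 2738 CPM in HFD_PFOA mice, against 3544, 4160, 3699 and 3827 CPM in HFD_vehicle mice. The CD groups did not overlap, whereas HFD_PFOA 1 lay within the range of HFD_vehicle. On the control diet Fga fell by 1.32 ± 0.26, Fgb by 1.15 ± 0.22 and Fgg by 1.37 ± 0.22 (adjusted p = 0.00077, 0.00053 and 0.00012). On the high-fat diet they were at -0.44, -0.37 and -0.53 and were not called (adjusted p = 0.27, 0.27 and 0.11). CD_vehicle 1, the mouse with high acute phase genes, had the most fibrinogen RNA. Without it, Fga was at -0.78, Fgb at -0.73 and Fgg at -0.96 on the control diet and still called, and all 3 were called lower on the high-fat diet as well. In HFD_vehicle mice Fga, Fgb and Fgg fell by 1.02, 0.99 and 0.99 relative to CD_vehicle mice, or by 0.48, 0.58 and 0.59 without CD_vehicle 1, and the call of Fga was lost in a fit of the 2 groups alone (adjusted p = 0.085). Of 15 acute phase genes, 8 were lower with PFOA on the control diet, 5 with PFOA on the high-fat diet and 3 in HFD_vehicle relative to CD_vehicle. The shares of all genes called lower in these comparisons were 12.6%, 7.91% and 5.21%. The part of the acute phase genes in the fibrinogen values was not tested.

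Fibrinogen RNA made up 0.83% ± 0.099 of all counts in HFD_PFOA, 0.882% ± 0.098 in CD_PFOA, 1.16% ± 0.11 in HFD_vehicle and 2.0% ± 1.13 in CD_vehicle (SD, n = 4 each). Fgg and Fgb did not keep one ratio. Fgg over Fgb per kilobase of exon was 0.989 ± 0.046 in HFD_PFOA and 0.958 ± 0.018 in CD_PFOA, against 1.11 ± 0.02 in HFD_vehicle and 1.11 ± 0.03 in CD_vehicle (SD, n = 4 each). The highest PFOA mouse had 1.05 and the lowest vehicle mouse 1.09, so the 8 PFOA mice lay below the 8 vehicle mice in this ratio. Fga over Fgb per kilobase did not separate them, as PFOA and vehicle mice overlapped on each diet. It was 1.48 ± 0.044 in HFD_PFOA and 1.56 ± 0.028 in HFD_vehicle (SD, n = 4 each). In CD_PFOA it was 1.41 ± 0.061 and in CD_vehicle 1.53 ± 0.156 (SD, n = 4 each). Levels per kilobase use the union of annotated exons, and Fgg shares some exon sequence with Gm30097 on the opposite strand, which a non-stranded library cannot tell apart.

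The stretches upstream of Fgb and Fgg are shown because the chains fell together on the control diet and sit side by side. Fgb lies at chr3:83049864-83050013 on the minus strand and Fgg at chr3:83007574-83007723 on the plus strand, both from RefSeq on GRCm38.p6. Capitals mark a match to TTGCNNAA, the C/EBP motif, or to GTTAAT, a part of the HNF1 site, on either strand.
Fgb: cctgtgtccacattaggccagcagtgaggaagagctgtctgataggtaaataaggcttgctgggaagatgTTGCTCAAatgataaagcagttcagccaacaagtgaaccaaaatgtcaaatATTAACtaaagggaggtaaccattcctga
Fgg: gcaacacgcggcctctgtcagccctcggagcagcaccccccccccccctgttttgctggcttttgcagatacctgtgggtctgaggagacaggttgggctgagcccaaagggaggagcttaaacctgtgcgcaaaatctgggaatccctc
Fgb held the C/EBP match at -80 to -73 and the HNF1 part at -29 to -24, and Fgg held no match to these motifs in this window. Of the 26 members with a RefSeq promoter entry, 8 held TTGCNNAA in the 250 bases upstream, against 9.56% of all 32851 promoters, and 5 held GTTAAT, against 6.43%. TTCNNNGAA, the STAT motif, was in 4 members and 7.02% of promoters, and TATAAA in 2 members and 12.4%. CAAAGTCCA, the HNF4 core, was in 0 members and 0.384% of promoters, the DR1 repeat in 0 members and 0.0335%, and the full HNF1 site, which contains GTTAAT, in 0 members and 0.00913%. Both strands were searched in each case. A match of letters is a description of sequence and not of binding.

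The other procoagulant genes of hepatocytes had smaller changes than F11 and F7. F2, which encodes prothrombin, had 970 to 1089 CPM in CD_PFOA mice, against 1571 to 1831 CPM in CD_vehicle mice, and 824 to 1032 CPM in HFD_PFOA mice, against 1228 to 1304 CPM in HFD_vehicle mice. It fell by 0.72 ± 0.09 (adjusted p = 3.5e-06) and by 0.48 ± 0.09 (adjusted p = 0.00044), with no overlap on either diet. F5, the cofactor of factor X, fell by 0.30 ± 0.08 on the control diet and by 0.49 ± 0.08 on the high-fat diet, and F9, the target of factor XI, fell by 0.31 ± 0.09 and by 0.35 ± 0.09. The calls of F5 and F9 on the control diet were lost with library totals and in a fit of the 2 groups alone, and that of F9 also with no filter and without CD_PFOA 1, CD_PFOA 2 or CD_vehicle 2. F10, which encodes factor X, fell by 0.69 ± 0.10 on the control diet (adjusted p = 2.8e-05) and was at -0.14 ± 0.10 on the high-fat diet (adjusted p = 0.40). F13b, the carrier subunit of factor XIII, fell by 0.52 ± 0.11 on the control diet and was at -0.15 on the high-fat diet. F13a1, the enzyme subunit, had at most 40 counts per mouse and was at 0.94 ± 0.89 on the control diet and -0.68 ± 0.82 on the high-fat diet, not called by edgeR on all mice. It was called higher on the control diet without CD_vehicle 1 and CD_vehicle 4 together (adjusted p = 0.0094).

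All 4 contact and kinin genes fell on the control diet. Klkb1, which encodes plasma prekallikrein, fell by 0.95 ± 0.15 on the control diet and by 0.69 ± 0.15 on the high-fat diet (adjusted p = 8.8e-05 and 0.0025). F12, which encodes the contact protease factor XII, fell by 0.47 ± 0.08 and was at -0.20 ± 0.08 on the high-fat diet. Kng2, a kininogen gene, fell by 0.62 ± 0.09 and by 0.43 ± 0.09, and its close paralog Kng1 fell by 0.63 ± 0.11 and was at -0.28 ± 0.11 on the high-fat diet. Reads from near-identical kininogen exons could be split between Kng1 and Kng2, so their separate values are uncertain. Klkb1 shares exon sequence with Gm45753 on the same strand, which adds the same reservation.

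Among the anticoagulants, 5 of 8 fell on the control diet and 2 of 8 on the high-fat diet, with 0 higher on either diet. The shares of all genes called were 12.6% lower and 11.8% higher on the control diet, and 7.91% and 8.6% on the high-fat diet. Serpinc1 encodes antithrombin, the main inhibitor of thrombin and factor X. It had 1389, 1494, 1583 and 1561 CPM in CD_PFOA mice, against 2336, 2596, 2428 and 2243 CPM in CD_vehicle mice. HFD_PFOA mice had 1394, 1280, 1275 and 1215 CPM, against 1667, 1603, 1725 and 1739 CPM in HFD_vehicle mice. Groups did not overlap, and Serpinc1 fell by 0.67 ± 0.08 (adjusted p = 3.8e-06) and by 0.38 ± 0.08 (adjusted p = 0.0021). Serpinc1 shares exon sequence with Zbtb37 on the opposite strand, and reads there cannot be assigned to a gene. Serpind1, heparin cofactor II, fell by 0.69 ± 0.09 on the control diet and by 0.47 ± 0.09 on the high-fat diet.

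Proc, which encodes protein C, fell by 0.47 ± 0.09 on the control diet and was at -0.19 on the high-fat diet. Proz, which encodes protein Z, fell by 0.71 ± 0.11 on the control diet and was at -0.29 on the high-fat diet. Serpina10, the protein Z-dependent inhibitor of factor X, fell by 1.23 ± 0.28 on the control diet, where CD_vehicle 1 had 473 CPM and the other CD_vehicle mice 134 to 171 CPM. Without that mouse it was at -0.60 (adjusted p = 0.00055). On the high-fat diet it was at -0.67 ± 0.28 (adjusted p = 0.11), and was called in the fit without CD_vehicle 1 (adjusted p = 0.00011). Pros1, the cofactor of protein C, was at 0.03 on the control diet and -0.32 on the high-fat diet and was not called (adjusted p = 0.90 and 0.070). Tfpi, the tissue factor pathway inhibitor, and Thbd, the thrombin receptor thrombomodulin, were at 0.28 and -0.26 on the control diet and at 0.14 and -0.40 on the high-fat diet, and were not called.

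**Figure D2:**
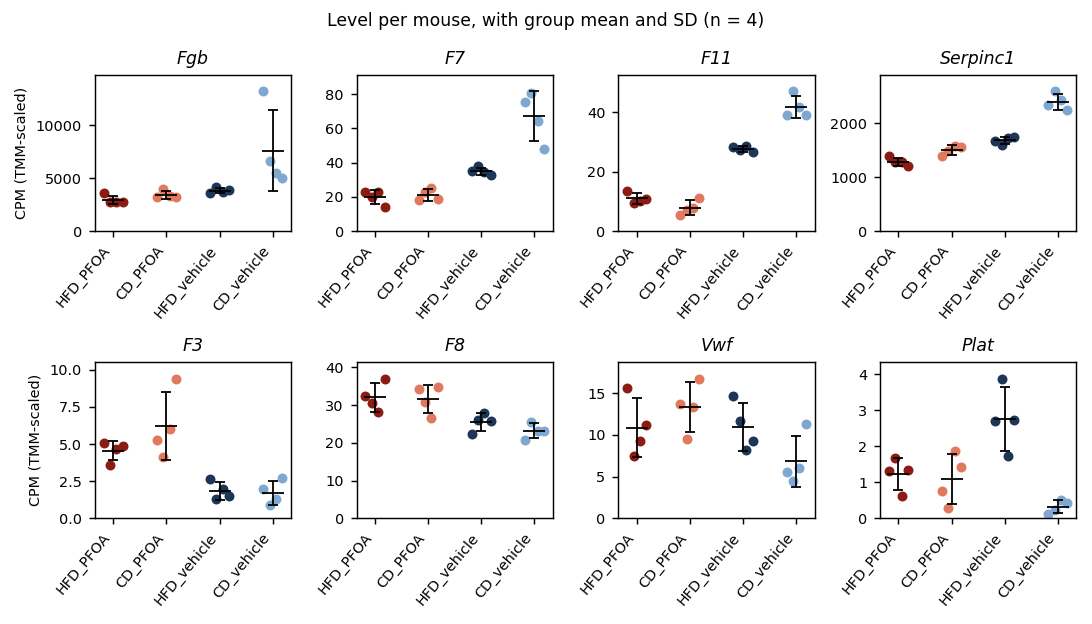
CPM of 8 members in each mouse, with the mean and SD of each group in black (n = 4). F7, F11 and Serpinc1 are lower in each PFOA group than in the vehicle group of the same diet, F3 is higher, and Plat is highest in HFD_vehicle.

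The procoagulant and anticoagulant arms were set side by side. The procoagulant arm took in tissue factor, the clotting factors, the fibrinogen chains, the contact and kinin genes and Vwf. Of 18 procoagulant genes, 14 fell and 3 rose on the control diet (median -0.63) and 7 fell and 2 rose on the high-fat diet (median -0.40). Over all genes tested, 12.6% were called lower and 11.8% higher on the control diet, and 7.91% and 8.6% on the high-fat diet. The 8 anticoagulant genes had medians of -0.57 and -0.35. The high-fat diet without PFOA gave medians of -0.43 for the procoagulant and -0.40 for the anticoagulant genes. Among genes made by hepatocytes, the median over 14 procoagulant genes in a mouse minus that over 6 anticoagulant genes averaged -0.11 ± 0.06 in HFD_PFOA, -0.05 ± 0.01 in CD_PFOA, -0.08 ± 0.06 in HFD_vehicle and -0.01 ± 0.06 in CD_vehicle (log2 units, SD, n = 4 each). Over all 18 and 8 genes the difference averaged -0.15 ± 0.06 in HFD_PFOA and -0.05 ± 0.06 in CD_PFOA (SD, n = 4 each). It was -0.045 ± 0.039 in HFD_vehicle and 0.01 ± 0.13 in CD_vehicle. Every HFD_PFOA mouse (-0.23 to -0.10) lay below every HFD_vehicle mouse (-0.085 to 0.005) in it. With hepatocyte genes only, these 2 groups overlapped. The differences between arms were small beside the fall of each arm, and no test was made of a score over chosen genes. The ratio of F2 to Serpinc1 per kilobase was 1.30 ± 0.07 in HFD_PFOA, 1.28 ± 0.03 in CD_PFOA, 1.39 ± 0.06 in HFD_vehicle and 1.33 ± 0.09 in CD_vehicle.

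**Figure D3:**
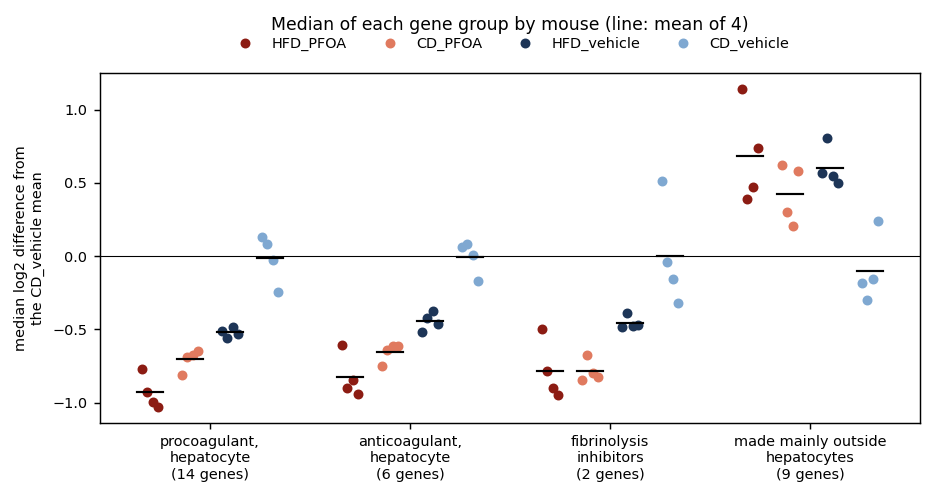
Each point is a mouse and gives the median, over the genes of a group, of log2(CPM + 0.5) minus the CD_vehicle mean; lines are means of 4 mice. The 2 hepatocyte arms are lowest in HFD_PFOA, at a mean of -0.93 for the procoagulant and -0.82 for the anticoagulant genes. The median of the 9 genes made mainly outside hepatocytes lies above 0 in the PFOA groups and in HFD_vehicle. These 9, set by general knowledge, are F3, F8, F13a1, Vwf, Tfpi, Thbd, Plat, Plau and Gas6, and the other 25 members were taken as hepatocyte genes. The 9 are mixed: mean Gas6 was lower in each of those groups than in CD_vehicle, and mean Thbd was lower in CD_PFOA.

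Plasminogen and its inhibitors fell on the control diet. Plg, which encodes plasminogen, had 1537 to 1601 CPM in CD_PFOA mice, against 1872 to 3093 CPM in CD_vehicle mice, and fell by 0.67 ± 0.12 (adjusted p = 0.00031). It was at -0.26 ± 0.12 on the high-fat diet (adjusted p = 0.15). Serpinf2, the antiplasmin gene, fell by 0.85 ± 0.14 and Cpb2, a carboxypeptidase that protects fibrin, by 0.80 ± 0.14 on the control diet. On the high-fat diet Serpinf2 was at -0.22 and was not called. Cpb2 was at -0.41 there, not called by edgeR on all mice (adjusted p = 0.054) but called lower by DESeq2 (adjusted p = 0.029), with library totals (adjusted p = 0.023) and without CD_vehicle 1, CD_vehicle 4 or HFD_PFOA 1 (adjusted p = 0.0086, 0.018 and 0.021). In HFD_vehicle relative to CD_vehicle, Plg fell by 0.55 ± 0.12 and Serpinf2 by 0.70 ± 0.14 (adjusted p = 0.0059 and 0.0035).

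Plat, which encodes tissue plasminogen activator, was the 1 member called higher in HFD_vehicle over CD_vehicle by edgeR with TMM factors. DESeq2 called F13a1 and Thbd higher as well. It had 2.70, 3.88, 1.73 and 2.72 CPM in HFD_vehicle mice, against 0.13, 0.23, 0.52 and 0.43 CPM in CD_vehicle mice. These groups did not overlap, and Plat rose by 3.08 ± 0.58 (adjusted p = 0.0021). With PFOA it had 1.31, 1.68, 0.62 and 1.33 CPM in HFD_PFOA mice and 0.75, 0.29, 1.85 and 1.43 CPM in CD_PFOA mice. It rose by 1.73 ± 0.57 with PFOA on the control diet (adjusted p = 0.033), where the groups overlapped and the call was lost without any of CD_PFOA 3, CD_PFOA 4, CD_vehicle 1 or CD_vehicle 2 and in a fit of the 2 groups alone. On the high-fat diet it was at -1.16 ± 0.52 and was not called. CD_vehicle mice held 3 to 11 counts of Plat each. Of the markers of other cells, 5 of 11 of stellate cells and 6 of 14 of macrophages were called higher in HFD_vehicle, against 5.19% of all genes. Their summed levels there were 841 to 919 CPM and 705 to 932 CPM, against 406 to 740 CPM and 376 to 672 CPM in CD_vehicle. Of 6 cholangiocyte markers tested, 1 was called higher, and the summed level was 125 to 249.9 CPM in HFD_vehicle, against 46.7 to 96.8 CPM in CD_vehicle. In HFD_PFOA it was 56.0 to 79.4 CPM, below every HFD_vehicle mouse. The stellate cell sum there was 628 to 839 CPM, also below every HFD_vehicle mouse. The macrophage sum was 493 to 991 CPM in HFD_PFOA and overlapped HFD_vehicle. The part of these markers in the values of Plat was not tested. Plau, which encodes urokinase, was at 0.89 ± 0.49 on the control diet and 0.53 ± 0.48 on the high-fat diet and was not called. Without CD_vehicle 4, which had the most Plau RNA of its group, it was at 1.75 on the control diet (adjusted p = 0.0063) and at 1.54 in HFD_vehicle over CD_vehicle (adjusted p = 0.024).

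F8 and Vwf are made by endothelium. F8, which encodes factor VIII, had 26.6 to 34.7 CPM in CD_PFOA mice, against 20.7 to 25.6 CPM in CD_vehicle mice, and rose by 0.45 ± 0.11 (adjusted p = 0.0058, or 0.062 without CD_vehicle 1 and CD_vehicle 4 together). On the high-fat diet it had 28.2 to 37.0 CPM in HFD_PFOA mice, against 22.3 to 27.8 CPM in HFD_vehicle mice, and rose by 0.33 ± 0.11 (adjusted p = 0.048), a call lost with library totals, with no filter and in 10 of 16 fits that left out 1 mouse. Vwf, which carries factor VIII and binds platelets, rose by 0.97 ± 0.28 on the control diet (adjusted p = 0.014, or 0.051 without CD_PFOA 4), with overlapping groups, and was at -0.02 ± 0.27 on the high-fat diet. Of 14 endothelial markers, 5 were called higher and 1 lower with PFOA on the control diet, against 11.8% and 12.6% of all genes. Their summed level was 501 to 655 CPM in CD_PFOA and 454 to 534 CPM in CD_vehicle. The part of these markers in the values of F8 and Vwf was not tested.

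The genes with several roles fell on both diets. Gas6, a ligand of the TAM receptors, fell by 1.11 ± 0.21 on the control diet and by 0.91 ± 0.21 on the high-fat diet (adjusted p = 0.00062 and 0.0048). On the control diet it was at -0.82 without CD_vehicle 1 and at -0.54 without CD_vehicle 1 and CD_vehicle 4, and still called. Hrg, a plasma glycoprotein that binds heparin and plasminogen, fell by 0.57 ± 0.11 and by 0.43 ± 0.11. Habp2, a hyaluronan-binding plasma protease, fell by 0.80 ± 0.11 and by 0.33 ± 0.11, and its call on the high-fat diet was lost in 6 of 16 fits that left out 1 mouse.

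**Figure D4:**
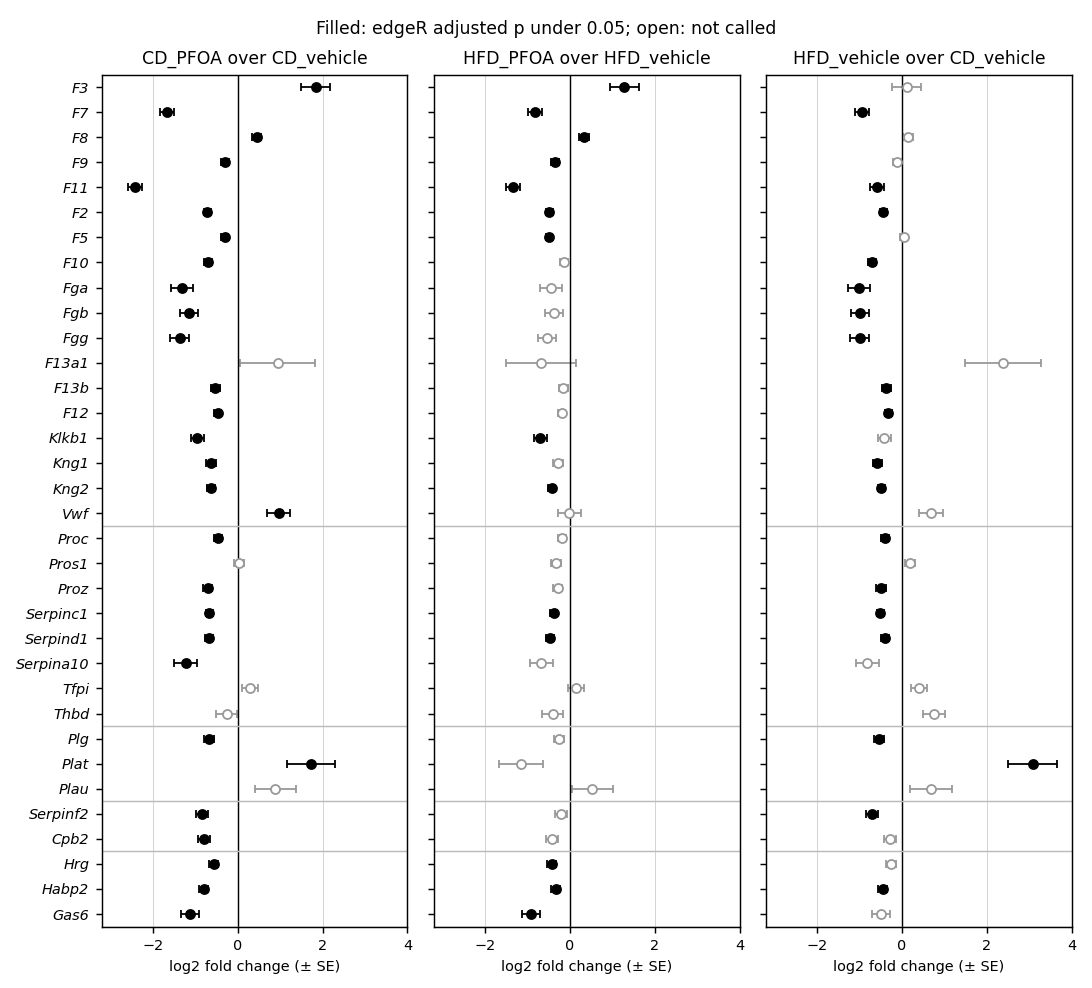
Log2 fold change and SE of each member in 3 comparisons, filled where edgeR's adjusted p was under 0.05. Most points lie left of 0 in all 3. Of the filled points, F3, F8, Vwf and Plat lie right of 0 in CD_PFOA over CD_vehicle, F3 and F8 in HFD_PFOA over HFD_vehicle, and Plat in HFD_vehicle over CD_vehicle. Some open points, F13a1 and Plau among them, lie right of 0 in CD_PFOA over CD_vehicle and in HFD_vehicle over CD_vehicle.

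Most of the members are hepatocyte products, and hepatocyte markers moved too. Of 25 hepatocyte members, 24 fell with PFOA on the control diet and 11 on the high-fat diet, with medians of -0.69 and -0.38, and 18 were lower in HFD_vehicle than in CD_vehicle (median -0.48). Of 11 other hepatocyte markers, 7 fell and 1 rose on the control diet, 8 fell and 1 rose on the high-fat diet, and 8 were lower in HFD_vehicle, with medians of -0.66, -0.40 and -0.55. Of all genes tested, 12.6%, 7.91% and 5.21% were called lower in these comparisons, and 11.8%, 8.6% and 5.19% higher. Fewer hepatocytes and less RNA per hepatocyte cannot be told apart in bulk liver, and the part of hepatocyte content in the members' values was not tested. Pecam1, an endothelial marker, rose by 0.50 ± 0.11 with PFOA on the control diet and was at 0.08 ± 0.11 on the high-fat diet.

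Whether PFOA acted differently on the 2 diets was tested by the interaction. By edgeR 0 members were called, with 18 of 34 at an unadjusted p under 0.05, against 10.9% of all genes at that p. By the adjusted p, 0.0667% of all genes were called higher and 0.14% lower, or 0.207% in either direction. The estimate was positive in 22 of the 25 hepatocyte members, that is, a value nearer 0 on the high-fat diet. Over all genes tested, 47.2% of the estimates were below 0. The members' estimates come from the same mice and are not independent of one another. F11 had the smallest p, with an estimate of 1.08 ± 0.23 (adjusted p = 0.056), and Plat had an estimate of -2.88 ± 0.77 (adjusted p = 0.13). The estimates of the other 32 members lay between these. The median of the interaction over all genes was 0.02 with TMM factors and -0.10 with library totals, where 12 of the 34 members were below 0. DESeq2 called 3 members higher (F10, F11 and F7) and 1 lower (Plat), and 82 and 120 of all genes. Without CD_vehicle 4, edgeR called 5 higher (F10, F11, F7, Habp2 and Plg) and 1 lower (Vwf), where 0.774% of all genes were called higher and 1.52% lower. Without CD_vehicle 1 or without CD_PFOA 4 it called 1 higher, F11 in each case, against 0.403% and 0.026% of all genes.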

How the data were processed

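Counts per gene were used as the authors deposited them, 1 column per mouse. The submitters' processing notes list STAR 2.5.2b, featureCounts from Subread 1.6.0, Trimmomatic 0.33 and bcl2fastq 2.20.0.422, on GRCm38 (mm10). No source used here names the annotation release. Per the labels' protocols the libraries were non-stranded, so reads from overlapping genes on opposite strands cannot be separated; beside those named in the text, F5, Habp2, F13a1, Gas6 and Plg share exon sequence with a gene on the other strand. Coordinates and exon lengths come from GENCODE M21 on GRCm38, where 53360 of 53465 identifiers matched without their version.

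Genes with too few counts for edgeR's default filter were removed, which left 14998 genes and 99.9% of counts. A mean per group was fitted to 16 libraries with edgeR 4.0.16 (R 4.3.3, 12 residual degrees of freedom) and TMM factors. The fit was tested on simulated data that had the same spread for every gene and no outlying mouse. Those data do not cover mice that stand apart, such as CD_vehicle 1 and CD_vehicle 4. Alternatives were other size factors, library totals, DESeq2 1.42.0, other filters, a fit of the 2 groups compared and fits without each mouse. Figures add a pseudocount of 0.5 before log2. Replicates of a group differed by more than sampling noise, with chi-square per degree of freedom of 8.55 to 152. Replicate numbers follow accession order and name mice only. The members and lists were chosen with earlier results of these data known. No member was selected by its values: each is given by its value or within a stated range in each comparison; from 2 further lists, the 6 genes with the smallest p in each comparison could be named.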

Additional observations from a re-analysis of the deposited data

Results flagged for a closer look

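In 14 of 136 groups of 4 mice, the highest or lowest mouse stood far from the other 3 in a member's CPM. By chance the cutoff would flag about 1 in 20 independent groups. These groups are not independent, since all members come from the same mice, so the 14 cannot be set against that rate. HFD_PFOA 1 gave 7 of them and was the highest of its group in each, with 170.0 CPM of F13b, 270.4 of F9, 4335 of Fga, 3551 of Fgb, 1072 of Hrg, 1654 of Plg and 314.7 of Proz. CD_vehicle 1 was the highest of its group in Fga (18404 CPM), Serpina10 (472.8 CPM) and Serpinf2 (1027 CPM), and CD_vehicle 4 in Plau (3.03 CPM). F10 was lowest in CD_PFOA 1 (216.8 CPM) and in HFD_vehicle 4 (205.6 CPM), and Fgb was highest in CD_PFOA 2 (3972 CPM).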

How the results depend on the processing

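No paired analysis was possible because the labels give the groups no shared replicate numbers. Of the members called with PFOA on the control diet, the count lower was 23 to 25 under every alternative and the count higher 2 to 5 when 1 mouse was left out, lowest without CD_PFOA 4. With PFOA on the high-fat diet, 21 members were lower in a fit of the 2 groups compared and without CD_vehicle 1 and CD_vehicle 4 together, and 10 to 19 when 1 mouse was left out, highest without CD_vehicle 1, which takes no part in that comparison but adds to the shared estimate of spread; the count higher was 1 with library totals and with no filter, and 1 to 2 when 1 mouse was left out. For the high-fat diet without PFOA, the count higher was 7 with library totals, 3 with DESeq2, 3 with no filter and 2 in a fit of the 2 groups. It was 5 without CD_vehicle 1 and 4, and 1 to 3 when 1 mouse was left out. The count lower was 11 with library totals. In the fit of the 2 groups, the lower calls of F12, F13b, Fga, Habp2, Proc and Serpind1 were lost. There, 2.93% of all genes were lower, against 5.21% in the fit used above. For the interaction, the count higher was 3 with DESeq2, 6 with no filter, 1 with a mean CPM of at least 1, 7 without CD_vehicle 1 and 4 together and 0 to 5 when 1 mouse was left out, and the count lower was 1, 1, 3 (DESeq2, no filter, both CD_vehicle mice) and 0 to 1. Shares of all genes moved too. With PFOA on the high-fat diet, 12.3% were lower in the 2-group fit and 9.59% without both CD_vehicle mice, against 7.91% in the fit used above. For the high-fat diet alone, 13.7% were higher with library totals and 8.03% without both, against 5.19%. No filter and the 2-group fit gave 3.49% and 3.54%. For the interaction, 0.469% were higher with no filter, 0.113% at a mean CPM of at least 1 and 1.75% without both, against 0.0667%. The causes were not tested.

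The values that changed sign were all of uncalled members. With library totals they were F12 0.031, Proz 0.011 and Serpinf2 0.014 in HFD_PFOA over CD_PFOA, F9 0.11 in HFD_vehicle over CD_vehicle and Hrg -4.4e-06 for the interaction. Without CD_vehicle 1 and 4 they were F5 -0.0085 and Gas6 0.078 in HFD_vehicle over CD_vehicle, and F9 0.018, Gas6 -0.37, Serpina10 -0.17 and Tfpi 0.043 for the interaction. When 1 mouse was left out, the log2 values that crossed 0 ranged in HFD_PFOA over CD_PFOA Cpb2 -0.0027 to 0.17, F13b -0.095 to 0.044, F7 -0.17 to 0.034, F8 -0.057 to 0.076, Habp2 -0.062 to 0.050, Plat -0.12 to 0.59, and in HFD_vehicle over CD_vehicle F3 -0.11 to 0.41, and in the interaction F9 -0.13 to 0.024, Gas6 -0.094 to 0.39, Hrg -0.0016 to 0.21, Serpina10 -0.068 to 0.74, Thbd -0.38 to 0.022, and in CD_PFOA over CD_vehicle Pros1 -0.049 to 0.16, and in HFD_PFOA over HFD_vehicle Vwf -0.24 to 0.16.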

Other observations

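Of 38 other genes of coagulation that are no members, 34 were tested. With PFOA, 4 rose and 15 fell on the control diet, against 11.8% and 12.6% of all genes. On the high-fat diet 3 rose and 10 fell, against 8.6% and 7.91%. In HFD_vehicle 6 were higher and 7 lower than in CD_vehicle, against 5.19% and 5.21%. C4bp, which encodes a complement inhibitor that binds protein S in plasma in humans, fell by 1.55 ± 0.10 on the control diet and by 1.39 ± 0.10 on the high-fat diet. Lman1 and Mcfd2 form the receptor that carries factors V and VIII out of the endoplasmic reticulum. Lman1 fell by 0.80 ± 0.11 and by 0.73 ± 0.11, and Mcfd2 by 0.38 ± 0.10 and by 0.52 ± 0.10. Anxa2, a cell surface partner of plasminogen and Plat, was higher in HFD_vehicle than in CD_vehicle by 1.67 ± 0.20 (edgeR adjusted p = 7.2e-05).

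Of 18 liver transcription factors, 7 rose and 5 fell with PFOA on the control diet and 3 rose and 7 fell on the high-fat diet. Over all genes tested, 11.8% were called higher and 12.6% lower on the control diet, and 8.6% and 7.91% on the high-fat diet. The part of these factors in the members' values was not tested. Hnf4a, a regulator of many hepatocyte genes, fell by 0.48 ± 0.11 and by 0.41 ± 0.11 (edgeR adjusted p = 0.0023 and 0.011). Esr1, the oestrogen receptor gene, fell by 2.12 ± 0.33 and by 1.64 ± 0.33, and Onecut1 rose by 1.74 ± 0.31 and by 1.67 ± 0.33.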
